A study of Homo sapiens with 4 samples.

Results

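In the anti-IGF2BP2 peak lists of Jurkat cells, 1756 of 145715 peaks in replicate 1 and 2160 of 137934 peaks in replicate 2 lay mainly in a 5′ untranslated region (5′ UTR) and did not name coding sequence (CDS). They were chosen by the region text that the authors gave each peak. The 5′ UTR had to hold the largest share of the regions named, and CDS had to be missing from the text. Mainly thus means the largest named share, which can be a small part of the peak. Jurkat is an established human T-cell acute lymphoblastic leukemia (T-ALL) line, grown here in RPMI-1640 with serum and antibiotics and given no treatment. In iRIP-seq, cells are crosslinked with ultraviolet light, a protein is pulled down with an antibody together with the RNA it touches, and the RNA is sequenced. The experiment had 2 IGF2BP2 IP libraries and 2 input libraries, and the input peaks were not analysed here. The paper calls the iRIP-seq runs independent and replicate experiments, but neither it nor the labels say that replicates were separate cultures. The spread between replicates may therefore be technical. The members were 1.21% of the peaks in replicate 1 (95% Wilson interval from 1.15% to 1.26%), and 1.57% (from 1.5% to 1.63%) of those in replicate 2, with a mean of 1.39% ± 0.255 (SD, n = 2). Another 313 and 419 peaks lay mainly in 5′ UTR but named CDS and were left out. In 19 and 16 members another region tied with the 5′ UTR for the largest share, and the lowest 5′ UTR share of a member was 0.06 of its length in replicate 1 and 0.04 in replicate 2. In 71 and 70 members the 5′ UTR was the sole region named but had a share under 1, so the rest carried no named region.

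The 5′ UTR is the stretch of an mRNA between the cap and the start codon, which the scanning small ribosomal subunit crosses before translation begins. Features within it, such as the terminal oligopyrimidine (TOP) tract of ribosomal protein mRNAs, upstream reading frames and folded elements that bind iron regulatory proteins, are known to set how often an mRNA is translated. IGF2BP2 belongs to a family of RNA-binding proteins with RRM and KH domains that bind mRNA, also as readers of N6-methyladenosine (m6A), and is best known for contacts in coding sequence and 3′ UTRs.

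Many of the highest members that reached a listed gene start lay on mRNAs that open with a TOP tract. The first 30 transcribed bases of 7 genes are shown to make that visible (RefSeq, GRCh38.p14, 5′ to 3′), with the tract in capitals where it starts at the first base with C and runs on for at least 4 pyrimidines. PCBP1 is shown as a start without the tract. A member need not cover the printed bases. The peaks of RPL38 and PCBP1 shared 7 and 6 of the 30, and that of RPL38 began past its tract.
RPL38, chr17:74203678-74203707, plus strand: CTTTTTCgtccttttccccggttgctgctt
RPLP2, chr11:809967-809996, plus strand: CCTTTTCCTCCCTgtcgccaccgaggtcgc
NACA, chr12:56725270-56725299, minus strand: CTTTCTgccgccatcttggttccgcgttcc
RPS14, chr5:150449710-150449739, minus strand: CTCTCTTTCCggtgtggagtctggagacga
RPL29, chr3:51995866-51995895, minus strand: CTCTTCCggttctaggcgcttcgggagccg
RPL36, chr19:5690295-5690324, plus strand: CCTTCCgccacggccgtctctggagagcag
PCBP1, chr2:70087477-70087506, plus strand: agaccgccgaggctgccgccggagtcgcca

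Facts of the lists bear on all values below. The height of a peak, in overlapping reads (tags), was not adjusted for depth, and the depth of the libraries is unknown. In peaks longer than 1 step of 50 nt, the height times the number of steps was whole in 100% of cases within 0.01, as a mean over steps would be, so heights of short and long peaks are not the same quantity. The shortest length held 87.3% of the members of replicate 1 and 82.1% of those of replicate 2. The lists begin at 4 tags in replicate 1 and 5 tags in replicate 2. No input level enters a height, so an abundant mRNA and a strongly bound one cannot be told apart. Of 12 T-cell markers, 9 had a peak on their strand in both lists, against 1 of 5 B-cell, 0 of 5 myeloid, 0 of 3 erythroid and 1 of 4 epithelial markers. Positions differed by strand. On the plus strand, members with a listed start of their gene were centred a median of 92.0 nt and 87.0 nt downstream of the nearest one (replicates 1 and 2), and on the minus strand 231.0 nt and 211.0 nt. The plus strand held 57.0% (54.7% to 59.3%) and 58.4% (56.3% to 60.4%) of the members, against 49.1% and 50.6% of the 3′ UTR peaks without CDS and 51% of the 22199 listed starts of protein-coding genes. At the other end of genes the order was turned: 1.39% and 1.25% of the plus-strand 3′ UTR peaks were centred in the last 100 nt before the listed end of the gene, against 6.92% and 4.95% on the minus strand. The cause was not tested. Which part of a read a listed position marks is not given in the sources used here, and the region shares, the intron contacts and the distances from starts all rest on it.

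Most members were short and low. Peaks lying wholly in 5′ UTR made up 1304 members (74.3%) of replicate 1 and 1602 (74.2%) of replicate 2. The median height was 5 tags in replicate 1, with a range from 4 to 43, and 6 tags in replicate 2, with a range from 5 to 86. At least 10 tags were reached by 106 members (6.04%) and 286 members (13.2%). Among all peaks these shares were 1.68% and 5.97%. Against peaks mainly in 3′ UTR without CDS, which follow the same rule for the other end of the mRNA, the members were 4.63 percentage points more often at least 10 tags high in replicate 1 and 9.68 points in replicate 2 (two-sided Fisher's exact tests, Benjamini-Hochberg adjusted over 22 tests, p = 2.50e-16 and 9.90e-37). Against peaks that named both 5′ UTR and CDS they were less often so high, with differences of -9.38 and -12.5 points (the same exact tests, adjusted p = 5.13e-13 and 1.73e-17). These tests compare kinds of peaks within a library, not conditions, and peaks of the same gene share their source.

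The highest member found in both lists lay on HMGB2, which encodes a chromatin protein of the high mobility group (ENSG00000164104.12, chr4:173334250-173334300), at 33 tags in replicate 1 and 42 in replicate 2. That peak was also above every other peak on the HMGB2 mRNA, whose highest other peaks had 30 and 24 tags. RPL38, a protein of the large ribosomal subunit (ENSG00000172809.13, chr17:74203700-74203750), followed at 26 and 43 tags, and RPL32 (ENSG00000144713.13, chr3:12841450-12841500) at 23 and 28. RPLP2, a protein of the ribosomal stalk (ENSG00000177600.9, chr11:809950-810050), had 19 and 25 tags. A peak at chr6:34426000-34426050 had 19 tags in both libraries and carried the identifier ENSG00000270800.3, which was given no symbol because its position falls in both RPS10 and the readthrough gene RPS10-NUDT3. Ribosomal protein positions thus held 4 of the 5 highest places.

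The other 5 places went to mRNAs with different tasks. H3-3B, which encodes the replication-independent histone H3.3 (ENSG00000132475.10, chr17:75779650-75779700), had 18 and 23 tags, above its other peaks of at most 9.67 and 10.5. PCBP1, a poly(C)-binding protein (ENSG00000169564.7, chr2:70087500-70087600), had 17.5 and 18.5 tags, the closest pair after that of the identifier without a symbol. POLG, the catalytic subunit of the mitochondrial DNA polymerase (ENSG00000140521.17, chr15:89334650-89334700), had 16 and 33 tags, and the 5′ UTR held a share of 0.56 of that peak, the rest touching an intron. NACA, a subunit of the nascent polypeptide-associated complex (ENSG00000196531.14, chr12:56725250-56725300), had 16 and 22 tags. C21orf58 (ENSG00000160298.18) had 21 tags at chr21:46323550-46323600 in replicate 1 and 16 tags at chr21:46323500-46323600 in replicate 2, the sole pair of the 10 that was higher in replicate 1.

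**Figure D1:**
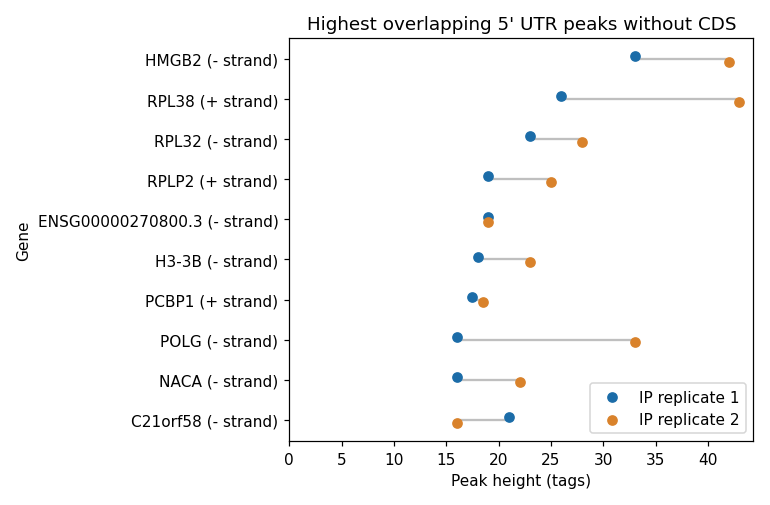
Peak height in tags (x axis) of the 10 highest overlapping pairs of 5′ UTR peaks without CDS, by gene and strand (y axis), with 1 point for each IP replicate and a grey line joining them. HMGB2 leads with 33 and 42 tags, and all pairs but those of C21orf58 and ENSG00000270800.3 were higher in replicate 2.

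Among the members of replicate 1, 646 (36.8%, 95% Wilson interval 34.6% to 39.1%) overlapped, on their own strand, a replicate 2 peak by more than a shared border position, and 622 members of replicate 2 (28.8%, 26.9% to 30.7%) overlapped a peak of replicate 1. Over all peaks, 9.19% and 9.62% were overlapped. The listed lengths count both ends, and with peaks that share a border position also counted the values were 46.9% and 36.6% for the members and 11.3% and 11.9% for all peaks. The members stood between the kinds of exonic peak they were compared with. Peaks naming both 5′ UTR and CDS were overlapped in 58.3% and 46.7% of cases, and the members differed from them by -21.5 and -17.9 points (two-sided Fisher's exact tests, adjusted p = 3.59e-23 and 9.26e-23). The 3′ UTR peaks without CDS were overlapped in 14.4% and 12.3% of cases, and the members differed from them by 22.4 and 16.5 points (the same exact tests, adjusted p = 9.81e-63 and 9.12e-48). Peaks lying in introns alone were overlapped in 2.91% and 3.22% of cases, and these p-values were too small for the software to hold.

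Height moved with overlap in every kind of peak. In replicate 1, 23.2% of the members under 5 tags and 81.5% of the 27 members of at least 15 tags were overlapped. In replicate 2 the share went from 11.5% of the members under 6 tags to 80.6% of those of at least 15. At 10 tags or more, 79 of 106 members (74.5%) and 207 of 286 (72.4%) were overlapped, against 64.4% and 54.0% of all peaks that high. At that height the members did not pass the test against 3′ UTR peaks, with differences of 14.5 points (95% Newcombe interval -2.52 to 32.5) and 10.0 points (-0.377 to 20.9) and adjusted p = 0.139 and 0.0850 by Fisher's exact test. Against peaks naming 5′ UTR and CDS the difference was -11.2 points in replicate 1, with an adjusted p at the threshold by the same exact test and not below it, and -8.80 points in replicate 2, which passed (adjusted p = 0.0197, the same exact test). The difference to intron peaks passed in both libraries, at 35.8 and 38.0 points (adjusted p = 2.97e-07 and 1.84e-22, the same exact test). Compared within single heights at all heights, the members differed by -13.2 and -6.43 points from the peaks naming 5′ UTR and CDS, by 14.9 and 7.87 points from the 3′ UTR peaks and by 25.7 and 15.3 points from the intron peaks.

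Most partners were themselves members. In 606 overlapping pairs of members, on 506 gene identifiers, 353 pairs (58.3%) had the same start and end in both lists. The peak of replicate 2 was the higher in 479 pairs, that of replicate 1 in 91, and 36 were equal, with a median ratio of 1.47. Over these 606 pairs, which share genes and libraries, the heights had a Spearman rho of 0.404. Both heights reached 10 tags in 52 pairs on 50 identifiers.

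**Figure D2:**
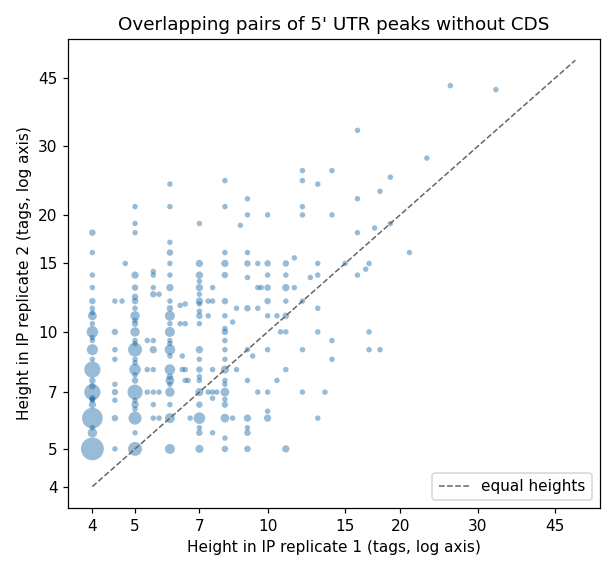
Height in IP replicate 1 (x axis, tags, log axis) against height in IP replicate 2 (y axis, tags, log axis) for the 606 overlapping pairs of members, with the area of a point growing with the number of pairs at that place and a dashed line for equal heights. Most pairs lie above the line, 479 of 606, and the lowest heights hold most pairs.

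Some of the highest members had no partner at all. In replicate 1 these were led by EEF1A1, the translation elongation factor that brings aminoacyl-tRNA to the ribosome, at 43 tags (chr6:73520950-73521000). Replicate 2 had 5 peaks on EEF1A1, the highest at 76 tags and the nearest 400 nt away. RPL38 had a further member of 38 tags in replicate 1 (chr17:74203900-74203950), 150 nt from the nearest peak of replicate 2, and PKM, a pyruvate kinase of glycolysis, had one of 27 tags (chr15:72231100-72231150), 100 nt from the nearest. In replicate 2 the highest was ACTB, cytoplasmic actin, at 86 tags (chr7:5530500-5530550), the highest member of either list, with a 5′ UTR share of 0.54. The nearest ACTB peak of replicate 1 lay 200 nt away and its highest had 19 tags. TCF12, an E-protein transcription factor, had 41 tags (chr15:56919850-56919900), 1100 nt from the nearest of 50 peaks in replicate 1, which reached 7 tags. YBX1, a cold shock domain RNA-binding protein, had 30 tags (chr1:42682450-42682500) beside a bordering peak of replicate 1, and also had a peak on the opposite strand. A high member was thus no assurance of a listed peak in the same place in the other library. Whether a partner was lost when the authors removed IP peaks overlapping input peaks was not tested.

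An intron was touched by 347 members (19.8%, 18% to 21.7%) of replicate 1 and 457 members (21.2%, 19.5% to 22.9%) of replicate 2. Among 3′ UTR peaks without CDS it was 2.80% and 3.70%, so the members were 17 and 17.5 points higher (two-sided Fisher's exact tests, adjusted p = 7.43e-76 and 2.38e-85). How often annotated 5′ and 3′ UTRs border an intron was not counted, and the part of gene structure in this difference was not tested. The share differed by strand: 12.9% and 13.6% of the plus-strand members touched an intron, against 28.9% and 31.8% on the minus strand. For the 3′ UTR peaks it was 4.08% and 5.64% on the plus strand and 1.57% and 1.71% on the minus strand, so the members had the higher share on either strand. It also differed by height. Of the members of at least 10 tags, 32.1% and 37.1% touched an intron, against 28.6% of 35 and 23.8% of 101 3′ UTR peaks that high, and the call was lost there in replicate 1 (difference 3.50 points, adjusted p = 1.00 by Fisher's exact test).

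Members that touched an intron were not the weaker ones. They reached at least 10 tags in 9.80% and 23.2% of cases, against 5.11% and 10.6% of the members that touched none, and 47.8% and 40.7% were overlapped by the other replicate, against 34.1% and 25.6%. Among those of at least 10 tags the order differed between the libraries, with 79.4% of 34 and 68.9% of 106 overlapped against 72.2% of 72 and 74.4% of 180 that touched no intron. These splits within the members were not tested. The intron held a median share of 0.26 of such a peak in replicate 1 and 0.22 in replicate 2. HNRNPK, which encodes an hnRNP that binds C-rich RNA, had such a peak at chr9:83978350-83978400 with a 5′ UTR share of 0.56, at 16 and 18 tags. SETD5, a SET domain protein, had one at chr3:9424450-9424500 with a share of 0.68, at 14 and 26 tags.

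A listed start of the same gene on the same strand was found for 1422 members (81.0%) of replicate 1 and 1749 (81.0%) of replicate 2. Over both strands, the peak centre lay a median of 146.0 nt and 150.0 nt downstream of the nearest start, and 15.7% and 14.0% of the members were centred over 1000 nt downstream of it. From 25 nt before to 100 nt after the start, the plus strand held 43.5% and 44.6% of its members and the minus strand 12.4% and 13.0%. Members touching an intron were over 1000 nt away in 32.2% and 28.2% of cases, against 11.5% and 10.0% of the others. On the plus strand these shares were 47.7% and 45.9% against 8.98% and 8.48%, and on the minus strand 22.6% and 17.0% against 16.0% and 13.1%. The distances are on the genome, and introns between the start and the peak were not taken out.

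In replicate 1, 376 members reached into the first 50 transcribed bases of a listed start, 323 of them on the plus strand, and in replicate 2, 485 members did, 422 of them on the plus strand. A TOP tract as defined for the printed sequences opened 51 of the 376 starts (13.6%) and 48 of the 485 starts (9.90%), against 4.54% of all listed starts and 5.71% and 5.68% of the starts of genes with any peak on their strand. By strand it opened 38 of 323 starts (11.8%) and 40 of 422 (9.48%) on the plus strand and 13 of 53 (24.5%) and 8 of 63 (12.7%) on the minus strand. Where the member had at least 10 tags the tract opened 11 of 28 starts (39.3%) and 21 of 77 (27.3%). Of the printed genes, RPL38, RPLP2, NACA and PCBP1 are among the 10 highest pairs, RPS14 had 15 tags in both libraries, RPL29 had 16 and 14, and RPL36 had 13 and 15. The letters GGAC, searched on the transcript strand as the core of the m6A motif, were in the first 50 bases of 17.3% and 20.4% of the starts with a member and 19.8% of all listed starts. On the plus strand GGAC was in 17.0% and 19.2%, and on the minus strand in 18.9% of 53 and 28.6% of 63. GTAAGT or GTGAGT, letters found at the beginning of many introns, were in 3.72% and 4.12% of the starts with a member against 2.63% of all. By strand they were in 2.48% and 3.32% on the plus strand and 11.3% and 9.52% on the minus strand. Where the member had at least 10 tags they were in 6 of 28 starts (21.4%) and 8 of 77 (10.4%). The median GC content was 67.0% and 68.0%, against 64.0% over all listed starts and 66.0% over the starts of genes with any peak on their strand. On the minus strand it was 62% and 64.0%. Starts with a start codon close to the first base are under-represented by the rule itself, since peaks that name CDS were left out. All of these are descriptions without a test, and they cover only the minority of members near a start.

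The members lay on 1376 gene identifiers in replicate 1 and 1662 in replicate 2, and 749 identifiers had a member in both, which is 54.4% of the first set and 45.1% of the second. In 243 of the 749 no members overlapped. Most identifiers, 79.9% and 78.5%, had 1 member. In 150 identifiers (10.9%) of replicate 1 and 138 (8.30%) of replicate 2 the members were the only peaks on the gene's strand. Where the gene had other peaks, the highest member stood above all of them in 222 of 1226 identifiers (18.1%) and 305 of 1524 (20%) and below the highest of them in 58.8% and 66.4%. A peak mainly in CDS was also present in 62.8% and 71.2% of the identifiers. These counts by gene were not made for other kinds of peak, so none of them can be called particular to the members.

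The genes with the most members in both lists were C21orf58 with 7 and 10, EEF1D, a subunit of the elongation factor complex that reloads EEF1A1, with 5 and 5, GIGYF1, an adaptor of translational repressors, with 7 and 4, GLB1L3 with 4 and 6, and SETD5 with 6 and 4. The members of C21orf58 were spread over chr21:46318300-46323700 with heights from 4 to 21 tags in replicate 1 and from 5 to 16 in replicate 2, and 4 of them in each list overlapped the other. TSC22D2, with 6 and 4 members, tied with SETD5 and is not described further. The members of SETD5 had 4 to 14 tags in replicate 1 and 9 to 26 in replicate 2. Those of EEF1D had 4 to 5 and 6 to 8 tags, and 2 in each list overlapped. GIGYF1 was highest at chr7:100694100-100694150, with 11 and 15 tags, and GLB1L3 reached 7 and 13 tags. Of these 5 genes, C21orf58, GIGYF1 and SETD5 had a member of at least 10 tags in both libraries.

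Gene lists were read against the 7698 protein-coding genes that could be named and had a CDS or UTR peak in either library, of which 17.3% had a member in replicate 1, 21.0% in replicate 2 and 9.52% in both. The TOP mRNAs, which encode ribosomal proteins and translation factors, had 97 named genes, of which 37 (38.1%) had a member in replicate 1, 37 (38.1%) in replicate 2 and 32 (33.0%) in both. The median height of their highest member was 9 and 12 tags, against 5 and 6 over all named genes with a member. The 7 housekeeping controls, also known for high expression, had a member in 2 (28.6%), 4 (57.1%) and 2 (28.6%), with medians of 8 and 13 tags over those few genes. The share of TOP mRNAs in both lists was 19 of 53 genes on the plus strand and 13 of 44 on the minus strand, with 11.2% and 7.76% of all named genes. RPL38, RPL32, RPLP2 and NACA led the list, and their values stand above. RPS14, RPL29, RPL8, RPL28, RPL36, RPS2, RPL31, RPS12 and RPS19 also had at least 10 tags in both libraries. Their RNA abundance was not compared, and its part in these counts was not tested.

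Genes known for upstream reading frames had a member in 12 of 13 named genes (92.3%) in replicate 1 and 8 (61.5%) in replicate 2. All 8 were also in replicate 1. Over all named genes the shares were 17.3% and 21.0%, and 9.52% in both. This list was chosen with earlier results known, and neither 5′ UTR length nor RNA abundance was compared. In these genes the median height of the highest member was 4.50 tags in replicate 1 and 6.88 in replicate 2. Over all named genes with a member it was 5 and 6. ATF4, the transcription factor of the integrated stress response, had members of 8, 5 and 4 tags in replicate 1 and of 6.50 and 6 tags in replicate 2. PPP1R15A, which directs dephosphorylation of eIF2alpha, had 4 and 8 tags in replicate 1 and 6 and 6 in replicate 2, at the same places. IFRD1 had 5 and 5 tags in replicate 1, both overlapped by 1 peak of 9 tags in replicate 2, and SLC7A1, a cationic amino acid transporter, had 5 tags against 21 at chr13:29595400-29595450. ATF5, CDKN1B, CEBPB and IBTK had a member in replicate 1 alone, at 9, 6, 4 and 4 tags.

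Among 30 named genes of the hnRNP and SR families, which bind pre-mRNA and steer splicing, 14 (46.7%) and 15 (50%) had a member, and 13 (43.3%) did in both. Over all named genes the shares were 17.3%, 21.0% and 9.52%. RNA abundance was not compared for this list either, and its part in these counts was not tested. HNRNPF, an hnRNP that binds G-rich RNA, had 12 and 26 tags at chr10:43396450-43396500, above its highest peaks that are no members, of 6 and 12 tags. HNRNPK is given above, HNRNPA0 had 8 and 6.50 tags, and SRSF3, an SR splicing factor, had 6.60 and 7.50.

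Of 18 named genes recurrent in T-ALL, 10 (55.6%) had a member in each library and 7 (38.9%) in both. The share in both was 5 of 7 genes on the plus strand and 2 of 11 on the minus strand. The paper names part of this list, with RUNX1, DNM2 and ABL1, among the genes bound in these same libraries. A share above that of all named genes is thus partly built into the list. LEF1, a transcription factor of the Wnt pathway, had its highest member at 14 tags in each library, but at different places: 14 tags at chr4:108168750-108168800 in replicate 1, where replicate 2 had 9.50, and 14 tags at chr4:108167850-108167900 in replicate 2, where replicate 1 had 7. RUNX1, a transcription factor of blood cell development, had 5 members in replicate 1 of up to 7.50 tags and 3 in replicate 2 of up to 13, of which 1 pair overlapped at 4 and 10 tags. ABL1, a tyrosine kinase, had members of 5 tags in both libraries that shared a border position and were not counted as overlapping.

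The remaining lists were small. Of 13 named growth control genes with long or structured 5′ UTRs, 5 and 4 had a member and 2, JUN and HIF1A, did in both. The transcription factor JUN had 3 members in replicate 1 and 5 in replicate 2, with 3 overlapping pairs among them. Its highest members had 7 and 13 tags at different places, and the place of 13 tags in replicate 2 had 5 in replicate 1. HIF1A, the oxygen-regulated transcription factor, had 4 and 8 tags at places that did not overlap. Of 3 iron-responsive element genes, FTL, the ferritin light chain, had 6 and 7.67 tags in overlapping peaks, and FTH1, the heavy chain, had 4 tags in replicate 1 alone. Of 15 named genes of the IGF2BP family and the m6A machinery, 3 (20%) had a member in each library, close to the 17.3% and 21.0% of all named genes. IGF2BP1 had 7.50 and 8 tags in overlapping peaks, and the m6A demethylase ALKBH5 had 5 and 6 tags in replicate 1 and 6, 8 and 10 in replicate 2. Among 7 housekeeping controls, GAPDH, a glycolytic enzyme, had 12 and 20 tags at chr12:6534500-6534600, below its highest other peaks of 33 and 50, and ACTG1, the other cytoplasmic actin, had 4 and 5.5.

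**Figure D3:**
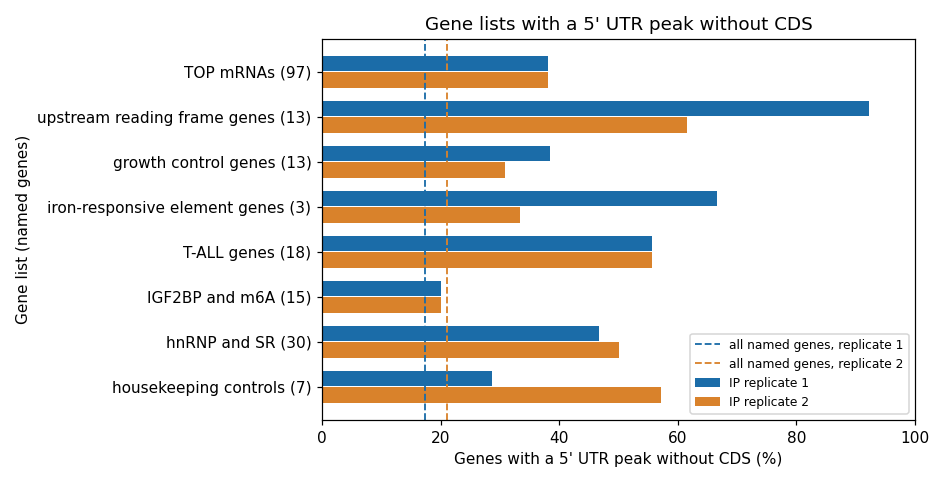
Share of the named genes of each list with a 5′ UTR peak without CDS (x axis, percent) by list, with the number of named genes in brackets (y axis) and 1 bar for each IP replicate. The dashed lines are the shares over all 7698 named genes, 17.3% and 21.0%, and the bars of the TOP mRNAs end at 38.1% in both replicates.

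An opposite-strand peak in the same list overlapped 25 members (1.42%, 0.966% to 2.09%) of replicate 1 and 15 members (0.694%, 0.421% to 1.14%) of replicate 2. Among 3′ UTR peaks without CDS the shares were 0.521% and 0.423%. The difference passed the test in replicate 1 (0.903 points, two-sided Fisher's exact test, adjusted p = 0.00337) and not in replicate 2 (0.272 points, 95% Newcombe interval -0.145 to 0.755, adjusted p = 0.243 by the same exact test). At 5 tags or more in both lists it was 0.179 points in replicate 1 and no longer passed.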

How the data were processed

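IGF2BP2 iRIP-seq of Jurkat cells gave 150 bp read pairs. Per the labels and methods, the authors converted the runs with bcl2fastq, aligned reads with TopHat2 to GRCh38 (build and tools from the submitters' processing notes), kept uniquely mapped reads, called peaks library by library with 500 random placements of a gene's reads and a p threshold of 0.05, and removed peaks overlapping input peaks. The annotation behind the regions is not given in the sources used here. The deposited height is a signal in tags without depth adjustment, and in longer peaks its values fit a mean over steps of 50 nt. Heights of the shortest peaks, 51 nt, were all whole, and 49.5% and 52.4% of the longer peaks had heights that were not. The deposited p-value of each peak was not used further.

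Positions lie on a grid of 50 nt. The listed length is 1 more than end minus start, so neighbouring steps share a border position. Positions were read as half-open intervals, and overlap needed 1 bp on the same strand beyond such a border, with border contact counted as an alternative. The 7980 identifiers with CDS or UTR peaks were named by position in RefSeq genes (GRCh38.p14), provided that a single protein-coding gene, widened by 1000 nt, covered 80% or more of such peaks of an identifier. By this 7698 were named (96.5%), and single names can be wrong. A listed start exists for 15843 of the 20056 protein-coding genes in that table. Two-sided Fisher's exact tests set kinds of peak against each other within each library, adjusted by Benjamini-Hochberg over 22 tests at 0.05. Wilson intervals (95%) cover counting error only, since PCR copies are not independent molecules. Comparisons within single heights used Mantel-Haenszel weights. Overlap, tests and naming were tested on simulated data.

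The members and gene lists were chosen with earlier results of these data known. Named were the 10 genes with the highest overlapping pair by its lower height, the 5 with most members in both lists, the 3 highest members of each replicate without a partner, and up to 4 genes per list with a member in both. A gene that this rule names is not reported here. Other genes, those of 1 replicate alone among them, were named after their values were seen. A genome sequence was not used here, so instead of peak sequences with a marked GGAN the first bases of listed starts are printed for members that hold at least 20 of the first 50 bases, a choice made after seeing the data, as were the split by strand and the values for peaks of the shortest length. Python 3.11.15, numpy 2.4.6, pandas 2.3.3, scipy 1.17.1, statsmodels 0.14.6 and matplotlib 3.10.9 were used.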

Additional observations from a re-analysis of the deposited data

How the results depend on the processing

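Of 310 values under alternative settings, 262 kept direction and call or stayed within a set bound. Of the 244 comparisons between kinds of peak among them, 223 kept direction and call. The bound was the SD of both replicates, for overlap the Wilson interval of replicate 1, and for gene counts a fixed factor. The cause was not tested for the values that changed. With both lists at 10 tags or more, the members' share of all peaks was 3.89% (mean of both replicates), the mean of the median heights 11.5 tags, the share touching an intron 34.6%, the overlap of replicate 1 55.7%, identifiers in both lists 54 and opposite-strand peaks 0.175%. The differences to 3′ UTR peaks then no longer passed for overlap (15.7 and 4.03 points) and, in replicate 1, intron contact (3.50 points) and opposite-strand peaks (0 points). At 5 tags or more the values were 2.02%, 22.0% touching an intron, 49.6% overlapped, 493 identifiers and an opposite-strand difference of 0.179 points in replicate 1. With a 5′ UTR share of at least 90% they were 1.11% of peaks and 5.22% touching an intron. The intron difference to 3′ UTR peaks was then 1.79 points in replicate 1 and 2.14 in replicate 2. It still passed and counts as kept, although it was far smaller than the 17 and 17.5 points of the main setting. That setting leaves little of a member for an intron, and the 3′ UTR peaks were not cut in the same way. With CDS allowed the values were 1.64%, 21.5% and 39.3% overlapped. The overlap of replicate 1 was 34.1% without intron contact, 46.9% with touching peaks counted, 34.2% with members alone as partners, 32.0% for peaks of the shortest length, and 28.8% for replicate 2 against replicate 1. With 1 peak per gene 21.6% touched an intron.

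Overlap at 10 tags or more was the least stable comparison. Against peaks naming 5′ UTR and CDS it passed in replicate 1 with a 5′ UTR share of at least 90% (-15.9 points), without intron contact (-13.5), with strand ignored (-12.8) and without ties (-11.4). In replicate 2 it no longer passed with CDS allowed (-7.23), without intron contact (-6.74), with touching peaks counted (-5.77), for peaks of the shortest length (-10.0), on the plus strand (-5.86) or on the minus strand (-10.9). Against 3′ UTR peaks it passed with CDS allowed (19.6 points in replicate 1, 12 in replicate 2), with 1 peak per gene (23.3 in replicate 1) and without intron contact (12.1 in replicate 2).

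Leaving out ties, keeping the shortest peaks and splitting by strand were chosen after seeing the data. On the plus and the minus strand, 13.2% and 30.3% touched an intron, 448 and 301 identifiers were in both lists, and the mean of the median distances was 89.5 nt and 221.0 nt. On the minus strand the opposite-strand difference was 0.802 points in replicate 1, no longer passing, and turned to -0.0943 points in replicate 2. With either replicate left out, the share of peaks was 1.21% to 1.57%, the intron share 19.8% to 21.2% and the median height 5 to 6 tags. A single replicate always lies within the SD of the mean of both, so these values could not count as moved. No paired analysis was possible because input peaks were not analysed here, so no IP library had an analysed partner of the same number. Depth is unknown, so a missing peak does not show a missing contact.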

Other observations

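Chromosome 19, the gene-dense chromosome that carries many zinc finger and ribosomal protein genes, held 138 members (7.86%) in replicate 1 and 168 (7.78%) in replicate 2, against 4.06% and 4.79% of all peaks. Chromosome 17 held 7.06% and 6.94% of the members against 4.95% and 5.69% of all peaks. Chromosome 4, the place of the highest shared member on HMGB2, held 3.47% and 3.89% against 5.09% and 4.62%. These shares were not tested.

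The letters CACA were in the first 50 bases of 6.91% and 5.98% of the listed starts with a member, against 13.1% of all listed starts and 10.1% and 9.96% of the starts of genes with any peak on their strand. On the plus strand they were in 6.19% and 6.16% of the starts with a member, and on the minus strand in 11.3% of 53 and 4.76% of 63. Members centred over 1000 nt downstream of the nearest listed start were overlapped by the other replicate in 27.4% and 26.5% of cases, against 40.5% and 30.1% of those from 25 nt before to 1000 nt after it. On the plus strand these shares were 35.0% and 31.0% against 39.4% and 29.2%, and on the minus strand 18.9% and 20% against 42.2% and 31.7%. Their median heights were 4 against 5 tags in replicate 1 and 6 tags in both sets in replicate 2. Members of at least 10 tags lay on the plus strand in 51.9% of cases (42.5% to 61.2%) in replicate 1 and 52.8% (47.0% to 58.5%) in replicate 2.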
